A study of Mus musculus with 16 samples.

Results

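Hippocampal expression was compared between High Activity and Low Activity female mice, using the 8 female libraries of a series of 16, 4 libraries from each strain. The members are all 29883 genes with at least 1 count in any of these 8 libraries, out of 31960 genes in the deposited table. High Activity (H2) and Low Activity (L2) mice are inbred strains founded on a cross of BALB/cJ with C57BL/6 and selected in opposite directions for locomotion in an open field. The High group held 4 females of the H2 strain (libraries 1, 2, 3 and 4) and the Low group 4 females of the L2 strain (libraries 9, 10, 11 and 12), all aged 70 days, naive to testing, group housed and without a transgene or a treatment. Polyadenylated RNA from both hippocampi of each animal was sequenced, each library was labelled as a separate animal, and the coats of the strains differ in color, so that the dissection was not blinded. Each side is 1 inbred line, so the selected behavior and any other fixed difference between H2 and L2 cannot be told apart here. In whole tissue, fewer cells of a type and less RNA per cell of that type cannot be told apart either.

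The hippocampus is a cortical structure needed for spatial and contextual memory, and its ventral pole takes part in anxiety-related behavior. Its excitatory neurons form a loop that runs through the granule cells of the dentate gyrus and the pyramidal cells of CA3 and CA1, with local inhibitory neurons, astrocytes, oligodendrocytes, microglia and vessels around them. When lines from a cross of inbred strains are bred to homozygosity, each line fixes one founder allele at nearly every locus, and the alleles can differ in promoter activity, in transcript stability, or in whether a gene copy is in the genome at all.

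Library totals lay between 24702507 and 27274192 counts, and 23143 to 23949 genes had a count in each library. The summed level of 10 dentate granule cell markers was 426 to 573 CPM (a count scaled to its library's total, with trimmed-mean factors), and that of 10 CA1 markers was 674 to 852 CPM, with Prox1, the dentate transcription factor, at 109.5 ± 15.5 CPM against 98.9 ± 10.2 CPM and Wfs1, a CA1 marker, at 109 ± 13.7 CPM against 104 ± 8.38 CPM in High against Low females (mean ± SD, n = 4 each throughout). The first principal component took 47.2% of the variance and separated the strains, and the second took 15.7% and set library 1 of the High group and library 9 of the Low group apart from the others. Library 9 also held counts that the other Low libraries nearly lacked. It had 23 counts of the Y-linked helicase gene Ddx3y, where the other 7 libraries had 0 to 6. For 12 features that were close to private to the High strain, the summed level in library 9 was 2.08% of the High mean, against 0.433%, 0.425% and 0.366% in libraries 10, 11 and 12, and library 9 was the highest of the 4 for 10 of the 12. For 7 features close to private to the Low strain, the High libraries held 0.189% to 0.250% of the Low mean. The source of these counts was not tested. A fit without libraries 1 and 9 called 3143 genes, against 3230 with them.

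With edgeR's quasi-likelihood test and Benjamini-Hochberg adjustment over all 29883 genes, 3230 genes (10.8%) passed an adjusted p of 0.05, the threshold for a call throughout, 1743 higher (5.83%) and 1487 lower (4.98%) in High females. A log2 fold change is High over Low throughout and is followed by its standard error. Protein-coding genes made up 2884 of the calls (15.6% of the 18508 tested, 8.49% higher and 7.09% lower). Among the 13736 protein-coding genes with a mean of at least 1 CPM, 19.8% were called, 10.7% higher and 9.12% lower, which is the background for the gene groups described here. Most calls were of modest size. Among the 2928 called genes of at least 1 CPM, the median size of the change was 0.31 on the log2 scale, and 2145 of them lay under 0.5, while 268 reached 1. The libraries of the strains did not overlap for 4396 genes (14.7%), 2751 of the called genes among them. Leaving out 1 library at a time gave 2568 to 3405 calls, and 2020 of the 3230 called genes (62.5%) were called in all 8 of these fits. Another tool, limma-voom, called 2734 genes, and a fit of all 16 libraries called 2319. In simulated data the main test called more unchanged genes than its threshold allows.

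Many of the largest differences belonged to genes with a near-identical copy elsewhere in the genome. Such copies include processed pseudogenes, which arise when a messenger RNA is reverse-transcribed and inserted without introns, and duplicated genes, and short reads from near-identical members can be hard to assign. Of the 268 called genes of at least 1 CPM with an absolute log2 fold change of 1 or more, 93 (34.7%) had a copy of at least 97% identity among the genes tested, against 105 of the 2145 (4.90%) with a change under 0.5. Stretches of 4 such pairs are shown because they let a reader see how few bases tell the members of a pair apart. Each is 120 bases of coding sequence, 5′ to 3′, from GENCODE M21 on GRCm38, with the bases that differ between the parent gene and its copy in capitals.

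Rpl26: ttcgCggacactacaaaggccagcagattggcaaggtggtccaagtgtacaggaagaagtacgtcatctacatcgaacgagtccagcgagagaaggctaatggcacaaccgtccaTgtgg
Gm15772: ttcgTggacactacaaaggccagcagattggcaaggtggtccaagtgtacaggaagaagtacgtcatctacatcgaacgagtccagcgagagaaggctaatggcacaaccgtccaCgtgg
Gapdh: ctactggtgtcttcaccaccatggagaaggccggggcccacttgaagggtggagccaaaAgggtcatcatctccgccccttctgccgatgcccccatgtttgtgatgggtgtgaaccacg
Gm13394: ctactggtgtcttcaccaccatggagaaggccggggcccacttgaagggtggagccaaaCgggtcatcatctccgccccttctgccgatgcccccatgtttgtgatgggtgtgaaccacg
Rplp0: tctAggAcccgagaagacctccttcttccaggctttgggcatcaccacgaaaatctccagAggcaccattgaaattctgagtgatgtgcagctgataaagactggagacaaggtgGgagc
Gm8730: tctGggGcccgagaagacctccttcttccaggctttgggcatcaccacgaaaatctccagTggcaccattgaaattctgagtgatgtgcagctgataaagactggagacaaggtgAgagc
Tpm3: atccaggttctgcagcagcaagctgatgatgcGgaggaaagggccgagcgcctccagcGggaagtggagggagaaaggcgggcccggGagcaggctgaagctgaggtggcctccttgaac
Tpm3-rs7: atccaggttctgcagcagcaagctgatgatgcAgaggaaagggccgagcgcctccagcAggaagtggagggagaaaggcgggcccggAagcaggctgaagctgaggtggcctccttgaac

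Rpl26, a protein of the large ribosomal subunit (chr11:68901583-68906989, plus strand), and its copy Gm15772 (chr5:3236431-3236868, plus strand) differed at 2 of 435 coding bases. The counts of Rpl26 gave 175, 161, 177 and 175 CPM in the High Activity females, against 62.7, 59.8, 58.98 and 52.1 CPM in the Low Activity females (log2 fold change 1.56 ± 0.05, adjusted p = 4.4e-16). For Gm15772 they gave 0.161, 0, 0.112 and 0 CPM in the High Activity females, against 124, 121, 126 and 127 CPM in the Low Activity females. The copy was thus at or near 0 in all High libraries, and the parent was lower in all Low libraries. Summed over the 5 members of their family, counts came to 172 ± 7.55 CPM against 183 ± 3.72 CPM in High against Low females, a difference that did not pass the test (log2 fold change -0.09 ± 0.04, adjusted p = 0.258).

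Gapdh, the glycolytic dehydrogenase often used as a reference gene (chr6:125161715-125166467, minus strand), and Gm13394 (chr2:28933610-28934609, minus strand) differed at 1 of 999 coding bases. Gapdh fell to 797, 756, 762 and 778 CPM in the High Activity females, against 1825, 1799.6, 1877 and 1889 CPM in the Low Activity females (log2 fold change -1.26 ± 0.04, adjusted p = 4.6e-16). Gm13394 had 824, 795, 774 and 779 CPM in the High Activity females, against 13.3, 0.880, 0.150 and 0 CPM in the Low Activity females, and a second copy, Gm7336, had 174, 156, 153 and 159 CPM in the High Activity females, against 3.75, 0, 0.901 and 0 CPM in the Low Activity females. Here the copies were high in the High strain, the reverse of the Rpl26 pair. The sum over all 47 members of the Gapdh family was 1729 ± 46.2 CPM against 1855 ± 40.1 CPM and did not pass the test (log2 fold change -0.10 ± 0.04, adjusted p = 0.167).

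Rplp0, an acidic stalk protein of the ribosome (chr5:115559467-115563727, plus strand), and Gm8730 (chr8:102864845-102865798, minus strand) differed at 12 of 951 coding bases, 4 of them within the stretch shown. Rplp0 was at 161 ± 8.19 CPM against 226 ± 6.80 CPM in High against Low females and Gm8730 at 60.3 ± 2.53 CPM against 0.474 ± 0.515 CPM, and their family summed to 233 ± 10.6 CPM against 227 ± 7.28 CPM (log2 fold change 0.04 ± 0.05, adjusted p = 0.65). Tpm3, a tropomyosin of actin filaments (chr3:90072649-90100902, plus strand), and the intronless Tpm3-rs7 (chr14:113314608-113316754, plus strand) differed at 3 of 744 coding bases. Tpm3 stood at 67.1 ± 3.33 CPM against 155 ± 2.75 CPM and Tpm3-rs7 at 83.3 ± 2.11 CPM against 1.32 ± 0.735 CPM, with no overlap between the strains for either, and the sum was 150.4 ± 4.93 CPM against 156 ± 3.35 CPM (log2 fold change -0.05 ± 0.04, adjusted p = 0.514). Family sums also did not pass the test for the translation initiation helicase Eif4a1 with Eif4a-ps4 (262 ± 11.4 CPM against 257 ± 9.15 CPM), for the polyamine enzyme gene Amd1 with Amd2 (162 ± 4.27 CPM against 156 ± 3.99 CPM) and for the proton pump subunit gene Atp6v0c with Atp6v0c-ps2 (694 ± 18.3 CPM against 746 ± 11.2 CPM). Amd1 alone was called lower (log2 fold change -0.21 ± 0.05, adjusted p = 0.0048). The parents Eif4a1 (log2 fold change 0.14 ± 0.05, adjusted p = 0.0557) and Atp6v0c (log2 fold change 0.05 ± 0.04, adjusted p = 0.554) were not called themselves, unlike their copies.

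**Figure D1:**
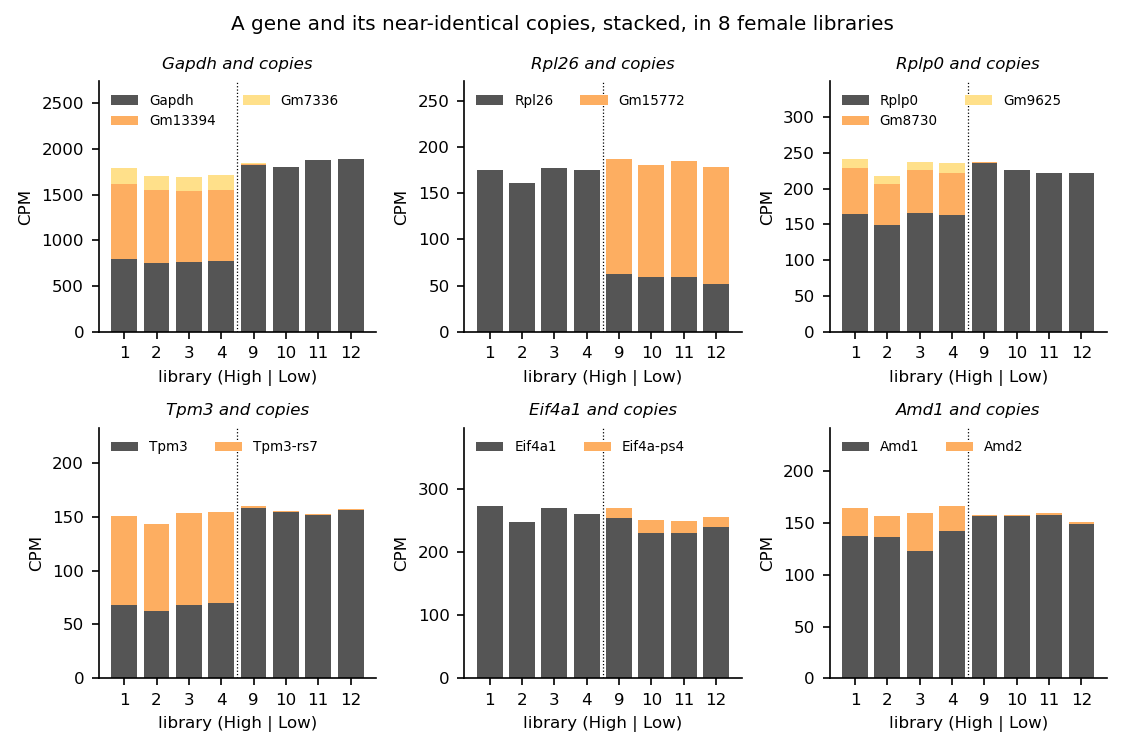
Stacked levels in CPM of 6 genes and their near-identical copies in each female library (High Activity libraries left of the dotted line, Low Activity libraries right). For Gapdh the sum over all copies was 1729 CPM in High and 1855 CPM in Low females, although Gapdh itself was at 773 against 1848 CPM.

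Not every family summed to a like level. Of 59 families with a called member of at least 1 CPM and an absolute log2 fold change of 1 or more, 21 were not called once their members were summed, 20 were called with a change under 1 and 18 with a change of 1 or more. Rps2, a small-subunit ribosomal protein, and Rps2-ps10 took opposite sides. Rps2 was at 345 ± 26.98 CPM against 4.72 ± 2.93 CPM in High against Low females, Rps2-ps10 at 0.513 ± 0.215 CPM against 698 ± 19.3 CPM, and the sum over the family was 346 ± 26.7 CPM against 704 ± 21.9 CPM (log2 fold change -1.02 ± 0.05, adjusted p = 4.3e-14), which is lower in High females while Rps2 alone was higher. Tmem181a, a transmembrane protein gene on chromosome 17, kept its direction. It rose to 296, 303, 321 and 349 CPM in the High Activity females, against 147, 140.5, 141 and 145 CPM in the Low Activity females (log2 fold change 1.14 ± 0.05, adjusted p = 3.4e-14), its pseudogene Tmem181b-ps was at 215 ± 15.4 CPM against 80.9 ± 4.97 CPM, and the family sum was 558 ± 39.2 CPM against 226 ± 6.92 CPM (log2 fold change 1.31 ± 0.05, adjusted p = 1.1e-16). The dynein light chain genes around Dynlt1b summed to 51.6 ± 0.444 CPM against 24.3 ± 0.932 CPM (log2 fold change 1.09 ± 0.06, adjusted p = 5.5e-14), and Mid1, a microtubule-associated ubiquitin ligase gene at the edge of the pseudoautosomal region, summed with Mid1-ps1 to 10.04 ± 0.542 CPM against 41.9 ± 9.47 CPM (log2 fold change -2.06 ± 0.12, adjusted p = 4.4e-13). Fits with copies summed called 3164 features in all. How the authors' counting divided reads between such copies is not given beyond its being an expectation-maximization estimate, and its part in these differences was not tested.

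Among genes with counts in 1 strain alone, Atp6v0c-ps2 had 0 counts in all High libraries and 7782 in the Low libraries together, so it was at least 2523-fold lower, taking a floor of 3 counts over the group. Gm9825 (0 against 2440 counts, at least 791-fold lower) and Eif4a-ps4 (0 against 1943, at least 630-fold lower) had the same pattern. The chemokine gene Ccl21b and Gm10591 carried identical values in every library, 0, 0, 0 and 0 CPM in the High Activity females, against 7.43, 6.57, 4.24 and 0 CPM in the Low Activity females, and library 12 thus lay with the High libraries. In the other direction, the histone gene Hist1h2al had 372 counts in High and 0 in Low females (at least 127-fold higher), although the 8 members of its family summed to 37.97 ± 1.45 CPM against 49.6 ± 4.70 CPM, lower in High females (log2 fold change -0.39 ± 0.06, adjusted p = 6.0e-05). Gm7879 had 365 counts in High and 0 in Low females (at least 125-fold higher). The 4 members of its family, which include its parent gene Ppih, summed to 10.6 ± 1.12 CPM against 8.31 ± 1.12 CPM (log2 fold change 0.35 ± 0.11, adjusted p = 0.0452). Gm10184 had 462 counts in High females, all of them in libraries 2 and 4, and 0 in Low females. Counts of Ccl21b and Gm10184 were thus at 0 in some libraries of the strain that had them. Summed with their parent genes, Gm10184 with Kpna2 came to 18.2 ± 1.68 CPM against 20.4 ± 1.46 CPM and Gm9825 with Rnps1 to 99.8 ± 0.868 CPM against 92.7 ± 3.38 CPM, and neither sum passed the test, while the family of Ccl21b stayed lower at 6.35 ± 2.94 CPM against 52.3 ± 4.99 CPM (log2 fold change -3.05 ± 0.16, adjusted p = 9.2e-14).

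Among protein-coding genes named for the size of their difference, several were at a low level in one strain and readily counted in the other. Map3k13, a kinase of the axonal injury response, was at 29.2 ± 3.63 CPM against 0.820 ± 0.210 CPM in High against Low females. Trim12a, a member of the tripartite motif family of antiviral proteins, had 2.74, 3.06, 2.83 and 3.37 CPM in the High Activity females, against 0, 0, 0.0375 and 0 CPM in the Low Activity females (log2 fold change 7.72 ± 0.48, adjusted p = 2.9e-11). Onecut1, a homeobox transcription factor, was at 3.25 ± 0.878 CPM against 0.319 ± 0.137 CPM, and Tspan11, a tetraspanin, had 5.20, 3.85, 3.53 and 4.81 CPM in the High Activity females, against 0.557, 1.47, 0.901 and 0.864 CPM in the Low Activity females (log2 fold change 2.19 ± 0.24, adjusted p = 5.4e-07). Trim12a has a near-identical neighbor in Trim5, with which it summed to 3.45 ± 0.163 CPM against 0.00939 ± 0.0188 CPM (log2 fold change 7.92 ± 0.45, adjusted p = 4.8e-13). In each of these 4 genes every High library lay above every Low library, which the rule for naming them required. Pctp, which binds phosphatidylcholine, was at 1.81 ± 0.753 CPM against 0.407 ± 0.128 CPM and Olfr1039, an olfactory receptor gene, at 1.64 ± 0.0976 CPM against 0.365 ± 0.227 CPM. Amd2, the copy of Amd1, also belongs to the top of this order, at 27.5 ± 7.08 CPM against 1.30 ± 0.157 CPM.

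For 2 of these genes the size came from single libraries. Shox2, a homeobox gene of the thalamus, had 9.56, 5.78, 0.930 and 1.11 CPM in the High Activity females, against 0.706, 0.514, 0.188 and 0.471 CPM in the Low Activity females (log2 fold change 3.19 ± 0.55, adjusted p = 2.9e-04), so that libraries 1 and 2 were far above libraries 3 and 4, which lay close to the Low libraries. Capn11, a calpain best known from the testis, had 8.31, 0.981, 0.484 and 2.02 CPM in the High Activity females, against 0.0743, 0, 0.225 and 0.196 CPM in the Low Activity females (log2 fold change 4.53 ± 0.75, adjusted p = 1.6e-04), and library 1 held most of the counts. Shox2 missed the threshold in limma-voom and with all 16 libraries, and Capn11 in limma-voom.

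Genes lower in High females included Hdhd3, a haloacid dehalogenase-like protein gene, with 3.75, 3.81, 3.76 and 3.74 CPM in the High Activity females, against 16.2, 15.9, 15.6 and 15.01 CPM in the Low Activity females (log2 fold change -2.06 ± 0.10, adjusted p = 2.0e-13). The 4 High libraries lay very close together, and all Low libraries were far above them. Mylk3, the cardiac myosin light chain kinase, had 0.363, 0.189, 0.484 and 0.494 CPM in the High Activity females, against 3.45, 3.45, 3.68 and 2.48 CPM in the Low Activity females (log2 fold change -3.08 ± 0.28, adjusted p = 2.2e-08). Pcdhga11, 1 of the clustered protocadherins through which neurons tell their own processes from others, was at 7.28 ± 0.937 CPM against 38.8 ± 1.17 CPM (log2 fold change -2.41 ± 0.08, adjusted p = 2.6e-16), and Mcm6, a subunit of the replicative helicase, at 4.56 ± 0.971 CPM against 20.01 ± 1.87 CPM. The serine protease gene Prss41 was at 0.0487 ± 0.0471 CPM against 2.65 ± 0.370 CPM, Bspry at 0.468 ± 0.296 CPM against 2.55 ± 0.282 CPM, Aldh1a7 at 0.389 ± 0.185 CPM against 1.73 ± 0.685 CPM, and the chemokine genes Ccl19 and Ccl27 at 0.490 ± 0.221 CPM against 1.98 ± 0.394 CPM and 0.649 ± 0.924 CPM against 4.001 ± 0.948 CPM. With its copies Ccl19 summed to 0.509 ± 0.246 CPM against 2.002 ± 0.399 CPM (log2 fold change -1.95 ± 0.31, adjusted p = 5.5e-05). Ccl27 lies on an unplaced scaffold and is 1 of several chemokine copies, so that its counts are uncertain. Of the non-coding features, 1500004A13Rik was at 1.51 ± 0.217 CPM against 92.6 ± 2.03 CPM and Gm43305 at 19.5 ± 0.912 CPM against 213 ± 6.24 CPM, both lower in High females, and Itpa-ps1 was at 18.2 ± 1.72 CPM against 0.112 ± 0.0797 CPM, higher in High females, although with its parent gene Itpa it summed to 33.1 ± 1.86 CPM against 39.7 ± 1.57 CPM, lower in High females (log2 fold change -0.26 ± 0.06, adjusted p = 0.0028).

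**Figure D2:**
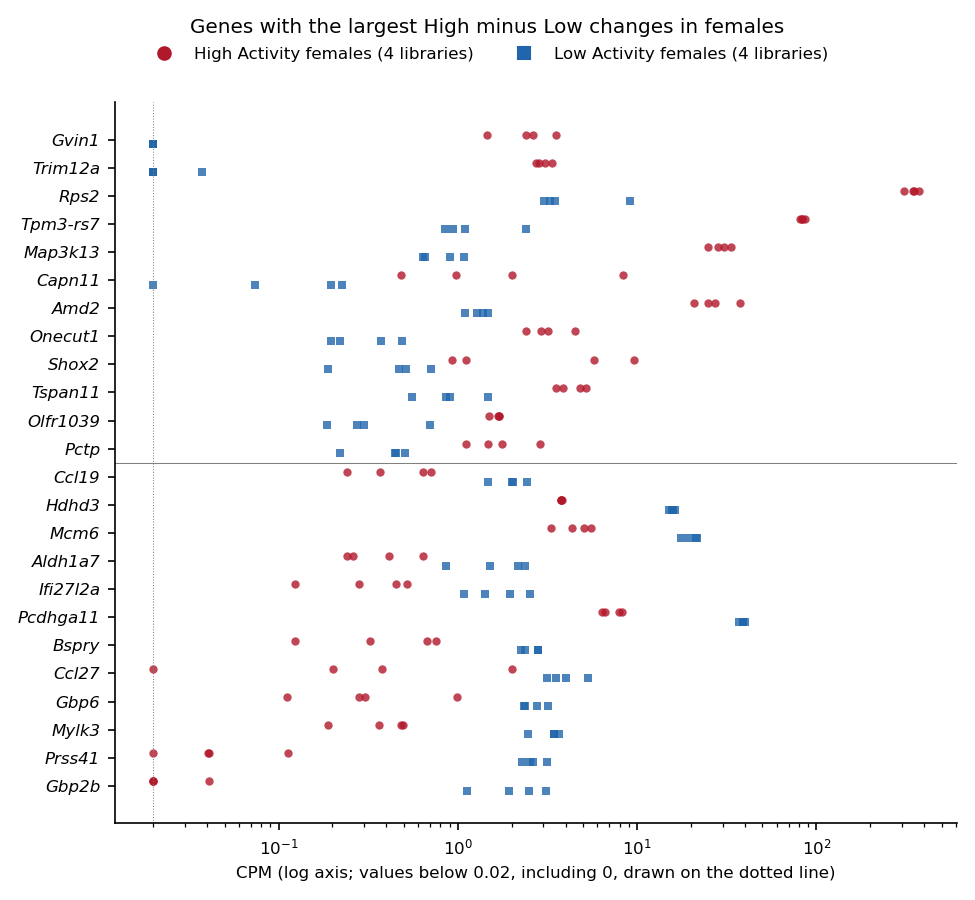
Levels in CPM on a log axis, 1 point per library, for the protein-coding genes named for the largest differences (circles, High Activity females; squares, Low Activity females; values below 0.02 drawn on the dotted line). The genes were chosen for libraries that do not overlap between the strains, and Shox2, Capn11 and Ccl27 are among those with a wide spread within the High strain.

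Abundant genes were also among the calls. Map1b, a microtubule-associated protein of axons and dendrites, had 892, 979, 758 and 800.03 CPM in the High Activity females, against 485, 467, 521 and 524 CPM in the Low Activity females (log2 fold change 0.78 ± 0.06, adjusted p = 3.6e-09). All High libraries lay above all Low libraries, with library 2 the highest, and the fold change was 0.56 in a fit with an offset for transcript length and GC content. Grin2b, an NMDA receptor subunit, was at 792 ± 88.1 CPM against 331 ± 20.5 CPM (1.26 ± 0.06, or 0.98 with that offset). Frrs1l, an assembly factor of AMPA receptors, had 441, 426, 446 and 447 CPM in the High Activity females, against 307, 275, 282 and 258 CPM in the Low Activity females (log2 fold change 0.65 ± 0.05, adjusted p = 1.3e-09). Fam234b, of unassigned function, had 222, 219, 228 and 225 CPM in the High Activity females, against 132, 132, 138 and 128 CPM in the Low Activity females (log2 fold change 0.75 ± 0.04, adjusted p = 5.6e-12). The libraries within each strain were close together for both genes. Tspan2, a tetraspanin of oligodendrocytes, was at 210.01 ± 38.3 CPM against 134 ± 10.3 CPM (0.65 ± 0.08). Tmem59l, a neuronal transmembrane protein gene, fell to 149, 138, 143 and 152 CPM in the High Activity females, against 245, 237, 244 and 243 CPM in the Low Activity females (log2 fold change -0.73 ± 0.04, adjusted p = 1.5e-11).

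Genes of myelinating cells were called in 1 direction, with a wide spread in the High strain. Of 12 mature oligodendrocyte markers, 7 were called higher, 0 lower and 5 not called (median log2 fold change 0.36), beside a median of 0.02 over all genes tested. Opalin, a myelin glycoprotein, had 45.1, 31.5, 48.4 and 31.8 CPM in the High Activity females, against 20.1, 24.9, 23.5 and 27.2 CPM in the Low Activity females (log2 fold change 0.71 ± 0.11, adjusted p = 9.0e-05). Libraries 1 and 3 were high for Opalin, and libraries 2 and 4 lay nearer to the Low group, still above all of it. Mag and Ugt8a, of the myelin sheath, were called with fold changes of 0.42 ± 0.09 and 0.45 ± 0.09, although libraries overlapped between the strains. Mbp, which encodes myelin basic protein, was at 3477 ± 646 CPM against 3295 ± 389 CPM in High against Low females and was not called. The marker sum was 10208, 7169, 10491 and 7774 CPM in High and 7047, 8391, 7637 and 9129 CPM in Low females, with the strains overlapping (exact two-sided permutation p = 0.429). The count of 7 was 4 in DESeq2, 3 in limma-voom and 4 when all 16 libraries were fitted together. Of 9 markers of oligodendrocyte precursors, 3 were called higher, 0 lower and 6 not called (median log2 fold change 0.15), among them Lhfpl3 (log2 fold change 0.43 ± 0.08, adjusted p = 4.1e-04), the growth factor receptor gene Pdgfra (log2 fold change 0.23 ± 0.05, adjusted p = 0.0055) and the proteoglycan gene Cspg4 (log2 fold change 0.39 ± 0.11, adjusted p = 0.0173), and 1 was called higher with an offset for transcript length and GC content.

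Of 12 astrocyte markers, 5 were called higher, 1 lower and 6 not called (median log2 fold change 0.13). Slc1a2, the glutamate transporter GLT-1 that clears most synaptic glutamate, rose to 3664, 3842, 3836 and 3797 CPM in the High Activity females, against 2914, 2773, 2783 and 2779 CPM in the Low Activity females (log2 fold change 0.43 ± 0.04, adjusted p = 2.4e-07). Library 9 was the highest of the Low group and still under every High library. The gap junction gene Gja1 was at 279.8 ± 7.31 CPM against 230.2 ± 15.3 CPM (0.28 ± 0.05) and Aldh1l1, a folate enzyme gene widely used to mark astrocytes, at 47.7 ± 2.31 CPM against 38.2 ± 2.91 CPM (0.32 ± 0.06), both called higher. S100b, a calcium-binding protein, was called in the other direction, at 79.98 ± 6.01 CPM against 107 ± 9.12 CPM (log2 fold change -0.42 ± 0.06, adjusted p = 3.0e-05).

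Microglial and complement genes moved unevenly. Of 13 microglia markers, 1 was called higher, 4 lower and 8 not called (median log2 fold change -0.09). The 3 chains of complement C1q, which opens the classical cascade and tags synapses for removal, were all lower. C1qb had 30.5, 22.7, 29.7 and 24.9 CPM in the High Activity females, against 49.4, 48.4, 43.4 and 50.8 CPM in the Low Activity females (log2 fold change -0.83 ± 0.08, adjusted p = 4.0e-08). C1qc had 26.8, 21.4, 22.5 and 19.1 CPM in the High Activity females, against 40.6, 38.1, 33.3 and 40.2 CPM in the Low Activity females (log2 fold change -0.76 ± 0.08, adjusted p = 6.3e-07). C1qa had 42.3, 30.7, 41.2 and 35.2 CPM in the High Activity females, against 51.9, 49.6, 44.9 and 54.3 CPM in the Low Activity females (log2 fold change -0.43 ± 0.08, adjusted p = 5.8e-04). No High library reached a Low library for any of these chains, and the 3 genes lie side by side on chromosome 4. Olfml3 was called in the other direction, at 24.8 ± 0.228 CPM against 19.4 ± 1.08 CPM (log2 fold change 0.36 ± 0.07, adjusted p = 6.5e-04). Of 17 complement genes, 1 was called higher, 3 lower and 13 not called (median log2 fold change 0.05), with the 3 C1q chains lower and C3, the central component, higher at 2.56 ± 0.800 CPM against 0.944 ± 0.379 CPM (log2 fold change 1.44 ± 0.29, adjusted p = 0.0014).

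Of 32 interferon-inducible genes, 2 were called higher, 13 lower and 17 not called (median log2 fold change -0.25). Ifit3, which binds foreign RNA, had 0.807, 1.47, 1.15 and 3.46 CPM in the High Activity females, against 5.01, 6.90, 5.41 and 8.17 CPM in the Low Activity females (log2 fold change -1.89 ± 0.28, adjusted p = 3.5e-05). Gbp6 was at 0.421 ± 0.387 CPM against 2.66 ± 0.400 CPM, Gbp2b at 0.0103 ± 0.0206 CPM against 2.16 ± 0.841 CPM and Ifi27l2a at 0.345 ± 0.179 CPM against 1.75 ± 0.636 CPM, all lower in High females. Gvin1, a very large GTPase, had 254 counts in High and 0 in Low females (at least 87.0-fold higher), and Gbp4 was at 2.81 ± 0.596 CPM against 1.47 ± 0.360 CPM (log2 fold change 0.93 ± 0.23, adjusted p = 0.0081), so that 2 members were called against the rest. Other members called lower were Irf7 (log2 fold change -1.08), a transcription factor of the interferon response, Isg15 (-0.82), a ubiquitin-like modifier, and Ifit1 (-1.43), Usp18 (-0.95), Oasl2 (-0.92), Ifitm3 (-0.56) and Irf9 (-0.36). Some members have close copies, and their counts are uncertain for that reason. Ifit3 with Ifit3b summed to 3.81 ± 1.83 CPM against 9.73 ± 1.92 CPM (log2 fold change -1.36 ± 0.20, adjusted p = 1.6e-05), and Gvin1 with Gm4070 summed to 5.79 ± 0.935 CPM against 4.92 ± 1.09 CPM, which did not pass the test. Of 16 class I antigen presentation genes, 0 were called higher, 3 lower and 13 not called (median log2 fold change -0.11), the called ones being H2-T23 (log2 fold change -0.43 ± 0.11, adjusted p = 0.0122), H2-D1 (log2 fold change -0.25 ± 0.08, adjusted p = 0.029) and B2m, the light chain shared by class I molecules (log2 fold change -0.21 ± 0.06, adjusted p = 0.0182).

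Among neuronal markers, 10 of CA1 gave 0 called higher and 1 lower, which was Mpped1 (log2 fold change -0.16 ± 0.05, adjusted p = 0.035). Of 12 markers of CA2 and CA3, 5 were called higher, 0 lower and 7 not called (median log2 fold change 0.16). Amigo2, an adhesion protein of CA2 and CA3a, had 21.9, 20.2, 21.7 and 19.6 CPM in the High Activity females, against 16.2, 17.4, 16.6 and 14.1 CPM in the Low Activity females (log2 fold change 0.37 ± 0.08, adjusted p = 0.0020), with no overlap, Coch was at 10.004 ± 1.65 CPM against 5.35 ± 1.72 CPM (log2 fold change 0.90 ± 0.16, adjusted p = 4.7e-04), Cacng5 at 15.5 ± 4.39 CPM against 10.1 ± 2.42 CPM and Bok at 85.8 ± 14.6 CPM against 69.3 ± 4.81 CPM. The count of 5 was 2 in limma-voom, 3 with all 16 libraries and 3 without library 12. Dentate granule cell markers were divided. Of 10, 2 were called higher, 3 lower and 5 not called (median log2 fold change -0.04). C1ql2, a synaptic organizer at mossy fibre synapses, was at 70.2 ± 12.8 CPM against 35.4 ± 4.23 CPM (0.99 ± 0.09), and Pdzd2 at 58.3 ± 5.22 CPM against 37.8 ± 4.25 CPM (0.63 ± 0.07), while Plk5, a kinase-like protein, had 18.8, 13.1, 16.3 and 15.6 CPM in the High Activity females, against 29.5, 25.7, 23.8 and 24.5 CPM in the Low Activity females (log2 fold change -0.70 ± 0.09, adjusted p = 1.0e-05). All High libraries were under all Low libraries for Plk5 and over them for C1ql2. Of 11 markers of newborn neurons and cycling cells, none was called, with medians of -0.07 over the list and 0.02 over all genes.

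Peptides of inhibitory neurons were divided as well. Of 12 interneuron markers, 3 were called higher, 2 lower and 7 not called (median log2 fold change -0.11). Cort, the somatostatin-related cortistatin, had 11.7, 7.32, 7.55 and 7.03 CPM in the High Activity females, against 5.16, 3.49, 3.34 and 4.44 CPM in the Low Activity females (log2 fold change 1.03 ± 0.17, adjusted p = 1.2e-04), and library 1 stood above the other High libraries. Npy was at 49.9 ± 7.22 CPM against 37.3 ± 3.11 CPM (log2 fold change 0.42 ± 0.08, adjusted p = 6.2e-04). Cck, cholecystokinin, fell to 269.7, 248, 271 and 296 CPM in the High Activity females, against 364, 348, 355 and 334 CPM in the Low Activity females (log2 fold change -0.37 ± 0.05, adjusted p = 1.6e-05), and Vip was at 8.72 ± 1.82 CPM against 13.3 ± 0.994 CPM (log2 fold change -0.61 ± 0.12, adjusted p = 9.5e-04). Cort and Npy are often found in the same somatostatin cells and Cck and Vip in the same basket cells, but Sst, the somatostatin gene itself, was not called. Calb2, calretinin, was the third called higher, and it also stands among the thalamic markers. The remaining 7, which include Sst, Pvalb and the GABA-synthesizing enzyme genes Gad1 and Gad2, were not called. The list thus does not show that 1 class of these cells differed.

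Genes of synaptic transmission differed in both directions. Of 16 GABA-A receptor subunits, 0 were called higher, 4 lower and 12 not called (median log2 fold change -0.03). Gabra5, an alpha subunit of extrasynaptic receptors in the hippocampus, was among those called lower, at 152 ± 16.1 CPM against 177 ± 12.7 CPM (log2 fold change -0.22 ± 0.06, adjusted p = 0.0232). With the offset for length and GC content 5 subunits were called lower. Of 16 ionotropic glutamate receptor subunits, 3 were called higher, 0 lower and 13 not called (median log2 fold change 0.04). Beside Grin2b, the AMPA receptor subunit gene Gria1 rose to 917, 886, 891 and 811 CPM in the High Activity females, against 783, 678, 720.3 and 715 CPM in the Low Activity females (log2 fold change 0.28 ± 0.05, adjusted p = 5.4e-04), while Grin2a was called higher (log2 fold change 0.24 ± 0.06, adjusted p = 0.0048) and stood at -0.023 with the offset (adjusted p = 0.853). The obligatory subunit gene Grin1 did not pass the test (log2 fold change 0.13 ± 0.05, adjusted p = 0.0671).

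Of 30 synaptic vesicle and SNARE genes, 7 were called higher, 3 lower and 20 not called (median log2 fold change -0.01). The active zone scaffolds Bsn and Pclo, both with very long transcripts, were higher at 402 ± 39.7 CPM against 306 ± 22.2 CPM and 187 ± 22.98 CPM against 135 ± 9.47 CPM (0.40 ± 0.06 and 0.47 ± 0.07, or 0.16 and 0.19 with the offset). Syt2, a fast calcium sensor of release (log2 fold change -0.36 ± 0.07, adjusted p = 0.0018), and Cplx1, which clamps vesicle fusion (log2 fold change -0.20 ± 0.05, adjusted p = 0.0077), were lower. Of 25 postsynaptic scaffolds and adhesion organizers, 6 were called higher, 2 lower and 17 not called (median log2 fold change 0.06), with Dlg2, known as PSD-93, at 360.2 ± 25.2 CPM against 289 ± 3.83 CPM and Shank2 at 172 ± 3.88 CPM against 145 ± 1.59 CPM higher, and Homer3 at 52.6 ± 5.38 CPM against 62.7 ± 2.55 CPM and Lrrtm4 at 32.8 ± 3.52 CPM against 40.2 ± 3.24 CPM lower. The higher count of 6 was 1 with the offset.

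Many channel genes have long transcripts. Of 40 subunits of voltage-gated sodium and calcium channels, 12 were called higher, 2 lower and 26 not called (median log2 fold change 0.16). Scn8a, the sodium channel of the axon initial segment, rose to 338, 353, 319 and 339.8 CPM in the High Activity females, against 265, 246, 267 and 256 CPM in the Low Activity females (log2 fold change 0.38 ± 0.05, adjusted p = 1.8e-06), and Cacng7 was at 138 ± 7.71 CPM against 110.5 ± 2.80 CPM (0.32 ± 0.05). Cacng6 was lower at 0.966 ± 0.487 CPM against 2.94 ± 0.503 CPM (-1.60 ± 0.28). The count of 12 was 4 with the offset and 4 with all 16 libraries. Among transcripts over 8 kb, 8 of 14 members were called higher, beside 39.8% of the other genes of that length. Of 32 potassium channel subunits, 4 were called higher, 1 lower and 27 not called (median log2 fold change 0.02), with Kcna1 (log2 fold change 0.33 ± 0.06, adjusted p = 6.4e-04) and Kcnc2 (log2 fold change 0.29 ± 0.06, adjusted p = 0.0024) higher and Kcnc4 lower at 43.7 ± 7.75 CPM against 64.9 ± 5.54 CPM (log2 fold change -0.57 ± 0.09, adjusted p = 6.2e-05). For potassium channels 2 were called higher and 4 lower with the offset (median -0.12).

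Of 71 axon guidance ligands and receptors, 23 were called higher, 5 lower and 43 not called (median log2 fold change 0.11). Dcc, the netrin receptor, rose to 42.3, 43.8, 40.6 and 41.1 CPM in the High Activity females, against 25.6, 21.8, 25.01 and 30.3 CPM in the Low Activity females (log2 fold change 0.71 ± 0.07, adjusted p = 2.9e-07), with every High library above every Low library. The Slit receptor gene Robo1 was at 58.9 ± 1.76 CPM against 35.8 ± 3.29 CPM (0.72 ± 0.06), its ligand gene Slit1 at 181 ± 13.9 CPM against 133 ± 7.16 CPM (0.45 ± 0.05) and the semaphorin gene Sema5a at 167 ± 17.1 CPM against 118 ± 5.92 CPM (0.50 ± 0.06). Plxnd1, a plexin, was lower at 29.4 ± 5.06 CPM against 45.4 ± 3.07 CPM (log2 fold change -0.63 ± 0.09, adjusted p = 1.5e-05), and Ntng2 at 27.7 ± 1.23 CPM against 33.3 ± 0.0746 CPM (log2 fold change -0.27 ± 0.06, adjusted p = 0.0028). The higher count of 23 was 20 with the offset and 12 with all 16 libraries. At 4 to 8 kb, 13 of 38 members were called higher, beside 13.6% of the other genes. Of 36 kinesin motors, 7 were called higher, 1 lower and 28 not called (median log2 fold change 0.05), with Kif5a, a carrier of axonal cargo, at 3745 ± 276 CPM against 2758 ± 231 CPM (0.44 ± 0.06), Kif13b at 56.6 ± 4.24 CPM against 36.99 ± 2.27 CPM (0.61 ± 0.06) and Kif17, a dendritic motor, lower at 8.84 ± 0.279 CPM against 12.4 ± 0.562 CPM (-0.48 ± 0.09). Of the kinesins, 4 were called higher and 3 lower with the offset.

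Of 44 histone lysine methyltransferases and demethylases, 9 were called higher, 0 lower and 35 not called (median log2 fold change 0.11). The lysine methyltransferases Kmt2c, Kmt2d, Kmt2a and Ash1l were higher by 0.41 ± 0.05, 0.45 ± 0.06, 0.41 ± 0.07 and 0.34 ± 0.05 on the log2 scale, and by 0.13, 0.20, 0.14 and 0.13 with the offset, where 2 members of the list were called higher and 2 lower. Among transcripts over 8 kb, 6 of 13 were called higher, beside 39.98% of the other genes of that length, so that the share was near its background.

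Genes of oxidative phosphorylation, which make ATP from the electron transport chain, were mostly lower in High females. The study itself took this pathway from the same samples, so their direction here is not independent evidence. Of 80 nuclear-encoded subunits of complexes I to V, 3 were called higher, 44 lower and 33 not called (median log2 fold change -0.17). By complex, 18 of 36 subunits of complex I, 7 of 13 of complexes II and III, 9 of 15 of complex IV and 10 of 16 of complex V were called lower. Atp5j2, of the ATP synthase stator, fell to 109.9, 114, 109 and 106 CPM in the High Activity females, against 144, 144, 147 and 148 CPM in the Low Activity females (log2 fold change -0.41 ± 0.04, adjusted p = 3.1e-07). Ndufc1, an accessory subunit of complex I, had 34.1, 32.7, 33.9 and 30.5 CPM in the High Activity females, against 43.3, 42.7, 44.4 and 39.6 CPM in the Low Activity females (log2 fold change -0.37 ± 0.06, adjusted p = 7.7e-05), and Uqcr11, of complex III, had 92.7, 87.7, 92.8 and 85.5 CPM in the High Activity females, against 120.02, 115, 112 and 111 CPM in the Low Activity females (log2 fold change -0.35 ± 0.05, adjusted p = 8.5e-06). No High library reached a Low library in any of these 3 genes. Cox7a2, of complex IV, was at 98.5 ± 2.53 CPM against 119.7 ± 4.69 CPM (-0.28 ± 0.05) and Sdhb, the iron-sulfur subunit of complex II, at 84.1 ± 1.42 CPM against 97.2 ± 1.75 CPM (-0.21 ± 0.04).

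The members called higher included Ndufb10 of complex I (log2 fold change 0.18 ± 0.05, adjusted p = 0.0144) and Cox6a2, the muscle form of a complex IV subunit (log2 fold change 0.77 ± 0.17, adjusted p = 0.0034). The 13 mitochondrially encoded subunits gave other counts, in which 4 were called higher, 1 lower and 8 not called (median log2 fold change 0.12). Among those higher was mt-Nd2 at 3653 ± 187 CPM against 3050.1 ± 212 CPM (log2 fold change 0.26 ± 0.05, adjusted p = 0.0017). The study lists this gene in the other direction, as upregulated in Low Activity mice of both sexes. The 1 called lower was mt-Co2, spread widely at 23.5, 49.5, 37.2 and 34.7 CPM in the High Activity females, against 94.3, 36.1, 105 and 44.4 CPM in the Low Activity females (log2 fold change -0.95 ± 0.23, adjusted p = 0.0079). Its libraries overlapped between the strains, and its level was far below that of mt-Nd2, for a reason that was not tested.

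Transcript length moved with this result. The median transcript of the 80 nuclear subunits was 1030 bases, and with the offset for length and GC content 21 were called lower and 4 higher (median -0.06). Within length classes the share called lower remained above that of other genes. Up to 1 kb, 18 of 37 were called lower, beside 25.2% of the others. At 1 to 2 kb, 16 of 26 were, beside 15.7%, and at 2 to 4 kb, 7 of 13, beside 9.31%. With the offset Atp5j2 stood at -0.38, Ndufc1 at -0.31, Uqcr11 at -0.17 and Cox7a2 at -0.14, the last no longer called.

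Other housekeeping groups gave smaller shares called lower. Their median transcripts were longer than the 1030 bases of the nuclear subunits, though only slightly for cytosolic ribosomal proteins. Of those, 8.54% were called lower, beside 55% of the nuclear subunits. Median lengths were 1100 bases for cytosolic ribosomal proteins, 1884 for mitochondrial ribosomal proteins and 1907 for proteasome subunits. Glycolytic enzymes had a median of 2609 bases and cholesterol synthesis enzymes 3245.5. Of 82 cytosolic ribosomal proteins, 2 were called higher, 7 lower and 73 not called (median log2 fold change -0.05), several of the called ones being genes with copies, and with the offset 12 were called higher and 1 lower. Of 77 mitochondrial ribosomal proteins, 4 were called higher, 18 lower and 55 not called (median log2 fold change -0.12). Mrpl14 was among the steadiest differences, with 12.6, 12.4, 12.5 and 12.6 CPM in the High Activity females, against 22.7, 25.4, 25.2 and 23.1 CPM in the Low Activity females (log2 fold change -0.94 ± 0.07, adjusted p = 1.8e-09). Mrpl34 had 10.7, 10.2, 10.8 and 11.4 CPM in the High Activity females, against 19.5, 20.4, 19.5 and 18.98 CPM in the Low Activity females (log2 fold change -0.87 ± 0.08, adjusted p = 2.2e-08), and Mrpl55 was called higher at 16.4 ± 1.70 CPM against 10.8 ± 0.404 CPM (0.60 ± 0.09). Of 39 proteasome subunits, 2 were called higher, 10 lower and 27 not called (median log2 fold change -0.10), with Psma4 at 64.3 ± 3.80 CPM against 78.9 ± 2.45 CPM and Psmb10, a subunit of the immunoproteasome, at 19.7 ± 2.33 CPM against 25.5 ± 1.97 CPM, both lower. With the offset, 4 proteasome subunits were called lower. Psmb5 was also called lower (log2 fold change -0.37 ± 0.06, adjusted p = 8.3e-05), but with its copy Gm3375 it summed to 96.6 ± 7.48 CPM against 101 ± 5.80 CPM and did not pass the test. Of 16 glycolytic enzymes, 0 were called higher, 5 lower and 11 not called (median log2 fold change -0.07). Beside Gapdh, whose counts are shared with copies, these were Pgam1, Ldha, Tpi1 and Pgk1, Pgam1 being at 447 ± 10.7 CPM against 529 ± 12.8 CPM (-0.24 ± 0.04). Of 18 enzymes of cholesterol synthesis, 5 were called higher, 1 lower and 12 not called (median log2 fold change 0.06). Sc5d, which acts late in the pathway, had 54.1, 55.04, 53.5 and 57.4 CPM in the High Activity females, against 73.4, 78.2, 79.6 and 79.6 CPM in the Low Activity females (log2 fold change -0.50 ± 0.05, adjusted p = 8.7e-08) and went against Msmo1 and Lss, which were higher by 0.27 ± 0.05 and 0.27 ± 0.07.

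Of 20 immediate early genes, which neurons switch on within minutes of activity, 0 were called higher, 6 lower and 14 not called (median log2 fold change -0.24). Jun fell to 76.1, 85.1, 66.4 and 69.98 CPM in the High Activity females, against 100.04, 93.6, 103 and 98.8 CPM in the Low Activity females (log2 fold change -0.41 ± 0.06, adjusted p = 4.3e-05), and Nptx2, a secreted organizer of AMPA receptors, to 23.8, 19.6, 24.1 and 25.3 CPM in the High Activity females, against 33.7, 34.8, 34.1 and 29.6 CPM in the Low Activity females (log2 fold change -0.51 ± 0.08, adjusted p = 4.3e-05). Fos had 15.6, 17.02, 19.6 and 22.1 CPM in the High Activity females, against 22.03, 36.4, 22.8 and 24.7 CPM in the Low Activity females (log2 fold change -0.51 ± 0.12, adjusted p = 0.0073), and its libraries overlapped, since library 4 was above library 9. Npas4 was at 11.001 ± 2.28 CPM against 17.2 ± 5.47 CPM (-0.64 ± 0.17). The count of 6 was 3 after a filter on low counts, 3 in DESeq2, 2 in limma-voom and 2 with all 16 libraries, and with 1 library left out it lay between 3 (library 10 left out) and 10 (library 4 left out). Of 14 inducible chaperones, Dnajb1 (log2 fold change -0.27 ± 0.06, adjusted p = 0.0034) and Bag3 (log2 fold change -0.37 ± 0.10, adjusted p = 0.0158) were called lower and none higher. Of 13 genes of glucocorticoid and corticotropin-releasing hormone signalling, 0 were called higher, 2 lower and 11 not called (median log2 fold change -0.03). The called ones were Nr3c2, the mineralocorticoid receptor, at 191 ± 8.87 CPM against 222 ± 15.6 CPM (log2 fold change -0.22 ± 0.05, adjusted p = 0.0054) and Hsd11b1, which regenerates active glucocorticoid, at 27.7 ± 2.88 CPM against 34.5 ± 3.93 CPM (log2 fold change -0.32 ± 0.08, adjusted p = 0.0085). Of 18 circadian clock genes, 2 were called higher, 2 lower and 14 not called (median log2 fold change -0.04), namely Nr1d1 (0.25 ± 0.05) and Rorb (0.50 ± 0.07) higher, and Dbp (-0.29 ± 0.06) and Bhlhe41 (-0.22 ± 0.06) lower.

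Of 13 endothelial and mural cell markers, 3 were called higher, 2 lower and 8 not called (median log2 fold change 0.12). Flt1, a receptor for vascular endothelial growth factor, rose to 64.1, 71.2, 59.98 and 59.9 CPM in the High Activity females, against 40.2, 41.6, 45.7 and 40.4 CPM in the Low Activity females (log2 fold change 0.60 ± 0.06, adjusted p = 1.3e-07), all High libraries being above all Low libraries, and Ly6c1 was lower at 27.7 ± 2.58 CPM against 37.1 ± 2.34 CPM (-0.42 ± 0.07). Of 44 collagens, 2 were called higher, 3 lower and 39 not called (median log2 fold change 0.00), with Col11a1 at 23.3 ± 7.02 CPM against 11.5 ± 0.730 CPM (1.01 ± 0.14) higher and Col11a2 at 27.4 ± 4.14 CPM against 35.9 ± 2.80 CPM (-0.39 ± 0.08) lower. Of 61 replication-dependent histones, 3 were called higher, 4 lower and 54 not called (median log2 fold change -0.19), with 14 of the 61 at 1 CPM or more. Of 383 zinc finger genes named Zfp, 23 were called higher, 8 lower and 352 not called (median log2 fold change 0.02), with Zfp758 at 11.5 ± 0.8292 CPM against 5.35 ± 0.222 CPM (1.10 ± 0.10) and Zfp983 at 7.996 ± 0.773 CPM against 16.8 ± 0.862 CPM (-1.07 ± 0.09), both on chromosome 17.

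**Figure D3:**
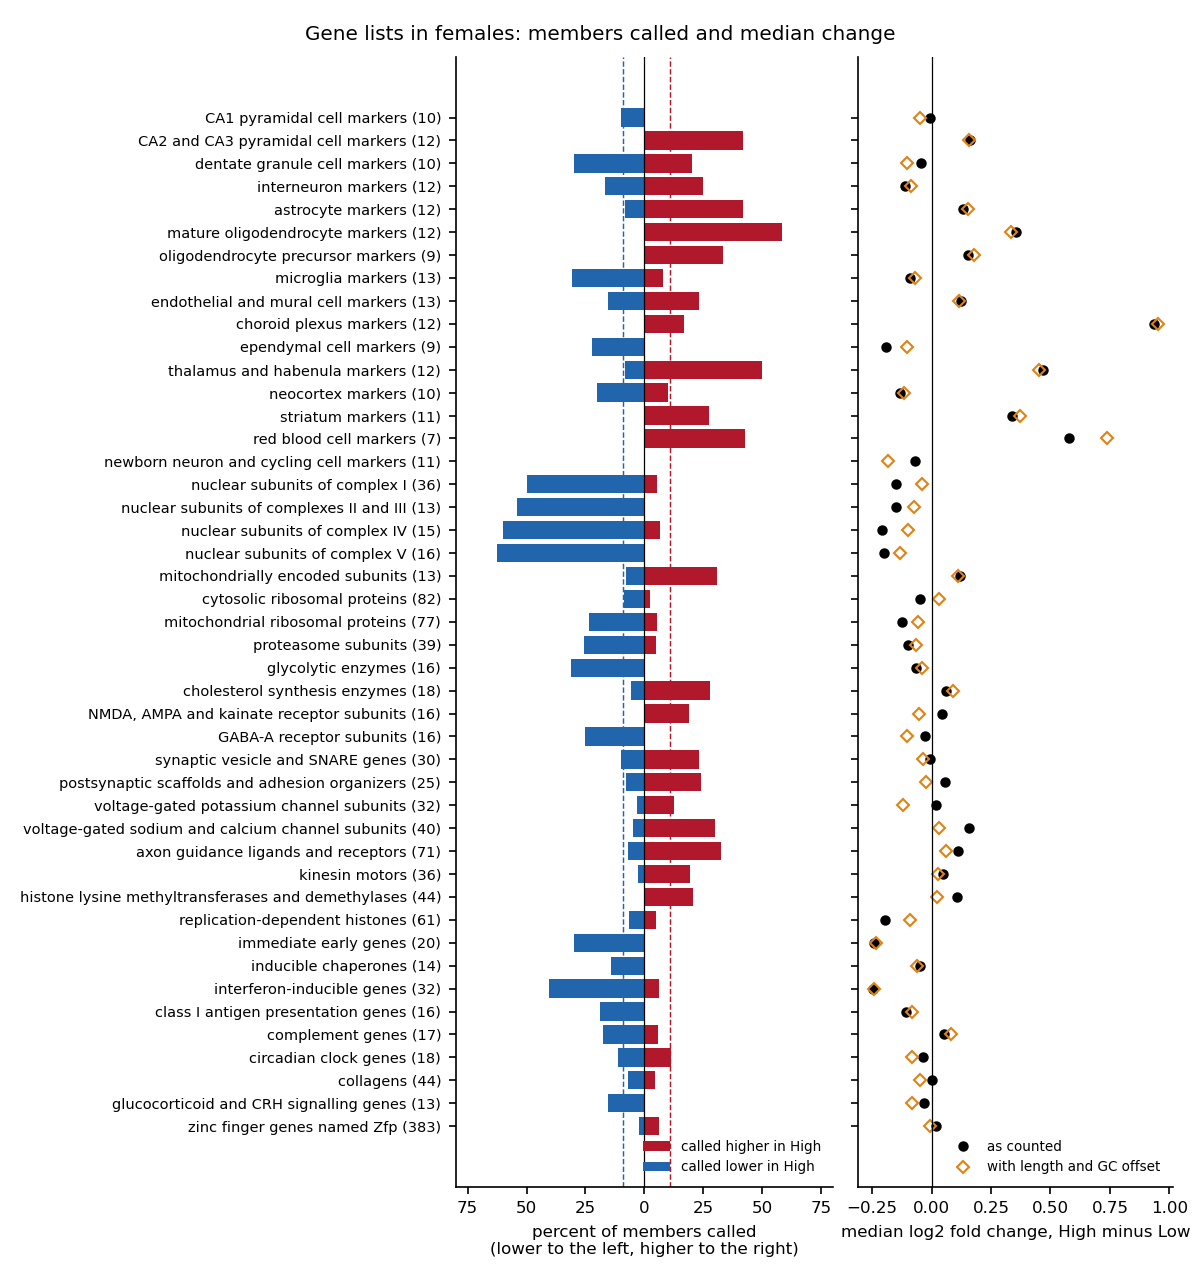
Left, percent of the members of each gene group called higher (right of 0) and lower (left of 0) in High Activity relative to Low Activity females, with members tested in brackets and dashed lines at the shares over protein-coding genes of at least 1 CPM (10.7% and 9.12%); right, median log2 fold change without and with the length and GC offset. Nuclear subunits of oxidative phosphorylation stand out on the lower side (44 of 80 in all), and mature oligodendrocyte markers on the higher side (7 of 12).

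Across genes, longer transcripts tended to be higher in High females. Among 13726 protein-coding genes of at least 1 CPM with an annotated transcript, the median log2 fold change was -0.14 for 478 genes of up to 1 kb, -0.09 for 2014 genes of 1 to 2 kb, -0.04 for 5598 of 2 to 4 kb, 0.04 for 4730 of 4 to 8 kb and 0.17 for 906 genes over 8 kb. In the shortest class 23 genes were called higher and 129 lower, and in the longest 363 higher and 24 lower. Spearman's rho of fold change with length was 0.352, as a description across genes, which are not independent replicates. With GC content it was -0.146, and length and GC content themselves had -0.266. With the offset, length classes had medians of -0.02, -0.03, -0.01, -0.01 and -0.01 in the same order. The offset was fitted to length and GC content in these same libraries, so medians near 0 follow from the way it was made. It also takes out any strain difference that runs with length, whatever the source.

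The trend was then measured in each library as the median deviation of genes over 8 kb minus that of genes up to 1 kb, where a deviation is log2 of CPM plus 0.5 minus the gene's mean over the 8 libraries, so that 0 is the average of these libraries. It was 0.0451, 0.292, 0.0956 and 0.186 in High libraries 1 to 4, against -0.196, -0.172, -0.130 and -0.110 in Low libraries 9 to 12. All High libraries were above 0 and all Low libraries under 0, with library 2 the highest and library 1 the nearest to 0. The strain means differed by 0.31 (exact two-sided permutation p = 0.0286, the smallest that 4 against 4 allow). The same measure for genes under 40% GC minus those over 55% differed by 0.0788 (exact permutation p = 0.0571). Within GC classes the length difference was 0.257, 0.314, 0.319 and 0.344 for the classes from 40% upward, and 0.0974 under 40%, where the short class held 12 genes (exact permutation p = 0.343). Within length classes the GC difference was 0.176 up to 1 kb, where the low-GC class held 12 genes, and 0.106 at 1 to 2 kb (exact permutation p = 0.0286 for each). It was 0.0529 at 2 to 4 kb (exact permutation p = 0.0857) and 0.0165 at 4 to 8 kb (exact permutation p = 0.543), and -0.0704 over 8 kb (exact permutation p = 0.0857).

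A length trend of this kind touches each group whose members are mostly long or mostly short. Its source was not tested, and no value of RNA integrity per library was used here. Of the 3230 calls, 2208 (68.4%) were also made with the offset, which called 2631 genes (8.83%), 1284 higher and 1347 lower. With it the glycolytic enzymes called lower came to 3, the cholesterol synthesis enzymes called higher to 3, the class I genes called lower to 1, the vesicle and SNARE genes called lower to 5, and the Zfp genes to 14 higher and 12 lower. In males of the same strains the trend was smaller and of the other sign, the strain means differing by -0.13 (exact permutation p = 0.314). Single male libraries, set against the mean of all 16, spread widely and overlapped between the strains. They were at 0.0951, -0.141, 0.176 and -0.212 in High and 0.292, 0.0860, 0.140 and -0.0863 in Low males. Libraries of 1 male strain thus lay as far apart as the female strain means. With both sexes on 1 scale the female difference of 0.30 minus the male one was 0.43 (exact permutation of strain labels within each sex, p = 0.0122, and of sex labels within each strain, p = 0.0110).

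**Figure D4:**
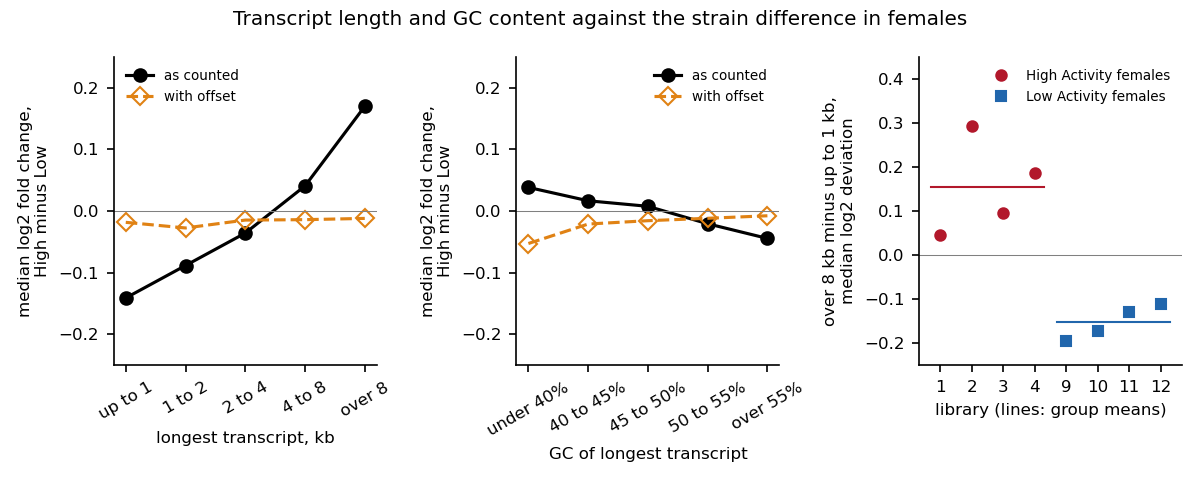
Median log2 fold change of High over Low Activity females by class of transcript length and of GC content, without and with the offset (left and middle), and the long-minus-short measure in each library with group means as lines (right). All 4 High libraries lie above 0 (0.0451 to 0.292) and all 4 Low libraries under 0 (-0.196 to -0.110).

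Genes of tissue next to the hippocampus varied between single libraries. The summed level of 12 choroid plexus markers was 1040, 4634, 3068 and 2386 CPM in High and 140, 1401, 1762 and 1511 CPM in Low females (exact permutation p = 0.143). Ttr, transthyretin, which the choroid plexus secretes, had 914, 4198, 2797 and 2159 CPM in the High Activity females, against 98.3, 1228, 1549 and 1327 CPM in the Low Activity females and was not called. Library 9 was thus the lowest and library 2 the highest, and the called members F5 (log2 fold change 1.20 ± 0.39, adjusted p = 0.0478) and Otx2 (log2 fold change 0.93 ± 0.27, adjusted p = 0.0234) both missed the threshold without library 2 (adjusted p = 0.208 for F5 and 0.0865 for Otx2), with a filter on low counts, in DESeq2 and in limma-voom.

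Thalamus and habenula markers summed to 381, 319, 203 and 234 CPM in High and 194, 210, 192 and 223 CPM in Low females (exact permutation p = 0.0857), and of 12 tested, 6 were called higher, 1 lower and 5 not called (median log2 fold change 0.47). Tcf7l2, a transcription factor of thalamus and habenula, had 21.8, 13.9, 5.66 and 10.4 CPM in the High Activity females, against 5.13, 3.08, 3.34 and 4.87 CPM in the Low Activity females (log2 fold change 1.65 ± 0.26, adjusted p = 8.2e-05). Calb2 was at 27.1 ± 8.31 CPM against 15.2 ± 5.03 CPM and Zic1 at 46.3 ± 18.8 CPM against 24.3 ± 6.99 CPM. In all of these, and in Shox2, libraries 1 and 2 were above libraries 3 and 4, and none of the 4 genes was called with all 16 libraries. Tac2 was called in the other direction, at 1.90 ± 0.470 CPM against 3.37 ± 0.847 CPM (log2 fold change -0.82 ± 0.21, adjusted p = 0.0127). Of 11 striatum markers, 3 were called higher, 0 lower and 8 not called (median log2 fold change 0.34), and of 10 neocortex markers, 1 was called higher, 2 lower and 7 not called (median log2 fold change -0.13). Hemoglobin genes followed single libraries too, Hbb-bs having 261, 164, 151 and 101 CPM in the High Activity females, against 161, 108, 85.2 and 89.4 CPM in the Low Activity females (log2 fold change 0.61 ± 0.19, adjusted p = 0.0375), with library 1 the highest and the groups overlapping (adjusted p = 0.14 without library 1), and 7 red blood cell markers summed to 986, 717, 671 and 556 CPM in High and 748, 590, 533 and 525 CPM in Low females (exact permutation p = 0.257). The part that carried-over tissue or blood has in the calls of other genes was not tested.

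**Figure D5:**
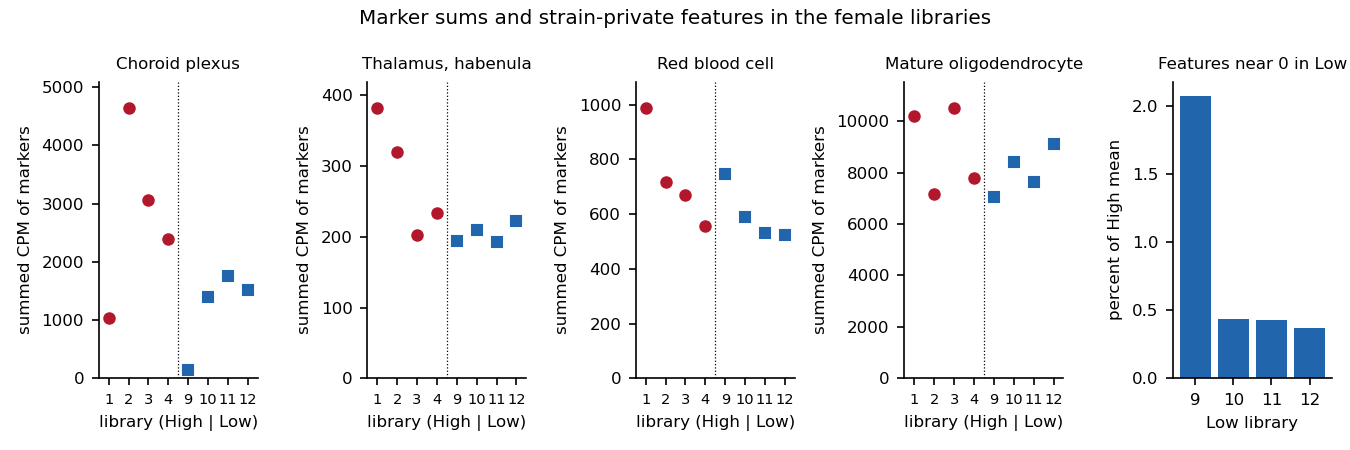
Summed CPM of 4 marker groups in each female library (circles, High Activity; squares, Low Activity), and the summed level of 12 High-private features in the Low libraries in percent of the High mean. Choroid plexus markers span 140 CPM (library 9) to 4634 CPM (library 2), and thalamus and habenula markers are highest in libraries 1 and 2 (381 and 319 CPM).

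Calls were spread over all chromosomes and were dense in a few windows. Among genes of at least 1 CPM, 19.4% were called, and over 301 windows of 5 Mb with at least 20 such genes the share ran between 0% and 51.6%, with a median of 18.2%. The densest window, chr17:5000001-10000000 (GRCm38), had 16 of 31 genes called and holds Tmem181a and the Dynlt1 genes with their copies, beside Fndc1 at 10.4 ± 0.678 CPM against 4.45 ± 0.249 CPM (1.23 ± 0.11) and Rsph3b, a radial spoke protein gene, lower at 8.66 ± 0.967 CPM against 19.3 ± 0.883 CPM (-1.15 ± 0.09). Rsph3b also has a near-identical copy, Rsph3a, with which it summed to 28.2 ± 0.973 CPM against 37.3 ± 0.712 CPM (log2 fold change -0.40 ± 0.06, adjusted p = 1.3e-05), a smaller difference. In chr4:55000001-60000000, 13 of 27 were called, with Frrs1l and its neighbor Tmem245 at 85.8 ± 10.3 CPM against 54.1 ± 1.76 CPM (0.67 ± 0.06) among 11 that were higher.

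In chr8:70000001-75000000, 41 of 87 were called, 31 of them lower. These include Tmem59l, Mrpl34 and Slc5a5, the sodium-iodide symporter, at 4.26 ± 1.20 CPM against 14.6 ± 1.79 CPM (-1.77 ± 0.14). Hapln4, a link protein of perineuronal nets, was higher in this window, at 171 ± 16.3 CPM against 104 ± 4.07 CPM (0.72 ± 0.06). In chr1:170000001-175000000, 25 of 56 were called, 21 of them higher, among them Copa, a coat protein of Golgi vesicles, at 186 ± 4.17 CPM against 145 ± 2.37 CPM (0.36 ± 0.04), and Fmn2 at 82.6 ± 4.18 CPM against 62.4 ± 3.51 CPM (0.40 ± 0.05).

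Whether the strain difference in females departed from that in males was tested as the interaction of strain and sex over all 16 libraries. No gene passed an adjusted p of 0.05 in edgeR's quasi-likelihood test (smallest adjusted p = 0.0886), while 3208 of the 31960 genes fitted had an unadjusted p under 0.05. No other tool was run on the interaction. The differences in females are therefore not shown to be particular to females at the level of single genes.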

How the data were processed

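The authors trimmed reads with cutadapt, aligned them with HISAT2 to mm10 and to the Ensembl GRCm38 transcriptome, used RSEM to estimate expected counts for each gene and dropped genes at 0 in all samples. Whether counting used strand is not given in the sources used here. The deposited table holds these counts as whole numbers, unnormalized. Submitters' processing notes name DESeq2 1.30.1 for the authors' own tests, which were not used.

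Members and gene lists were chosen with earlier results of these data known. The 8 female libraries were fitted with edgeR 4.0.16 (R 4.3.3; TMM factors, legacy quasi-likelihood test, High minus Low) over 29883 genes with a count, with Benjamini-Hochberg adjustment. In simulated data this test called more unchanged genes than its threshold allows. Library totals of 24702507 to 27274192 counts and a biological coefficient of variation of 8.69% set the precision. Fold floors (3 counts over a group) cover counting error only.

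Transcript length and GC content (longest transcript) and names came from GENCODE M21, in which 61 identifiers were missing. The length and GC offset was a spline with 5 degrees of freedom for each, fitted to each library. Copies were transcripts of at least 97% identity over at least 300 bases and 50% of the shorter transcript. Alternatives were filterByExpr, RLE, upper-quartile and no factors, DESeq2 1.42.0, limma-voom 3.58.1, the newer quasi-likelihood method, all 16 libraries, the offset, adjustment over protein-coding genes and each library left out. Summing copies and leaving out libraries 1 and 9 together were chosen after seeing the data.

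Genes were named by rule: the 12 largest changes each way among called protein-coding genes of at least 1 CPM with full symbols and no overlap; the 10 most abundant with an absolute change of at least 0.5; the 5 called genes of other types with the smallest p each way; the 4 with most counts in one strain and 0 in the other, each way; and up to 4 members per list, with members going against the rest. Other genes named (Prox1, Ttr, Mbp, parents and copies, and genes of windows) were chosen after their values were seen. A few genes chosen by this rule were left out of the text.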

Additional observations from a re-analysis of the deposited data

Results flagged for a closer look

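For 21 of 464 sets of 4 libraries (each gene or other measure checked, in each strain; 4.53%), 1 library stood apart from the other 3 by more than Dixon's 95% critical value, where chance gives about 5%. By library, the number was 5 in library 1, 5 in library 2, 0 in library 3, 1 in library 4, 6 in library 9, 0 in library 10, 2 in library 11 and 2 in library 12.

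In 11 of them the library was from a High Activity female. These were Bag3 at 11.02 CPM in library 2 (others 8.67 to 8.83), Ccdc153 at 9.68 CPM in library 1 (others 6.81 to 7.29), Cort at 11.7 CPM in library 1 (others 7.03 to 7.55) and Gbp2b at 0.0411 CPM in library 4 (others 0 in each). Next came Hist1h2al at 4.32 CPM in library 1 (others 3.37 to 3.46), Lhfpl3 at 20.5 CPM in library 1 (others 18.2 to 18.6), Npas4 at 7.63 CPM in library 2 (others 11.8 to 12.7) and Olfr1039 at 1.49 CPM in library 1 (others 1.67 to 1.70). The same was seen for Psmd9 at 20.9 CPM in library 2 (others 22.2 to 22.4), Rpl26 at 161 CPM in library 2 (others 175 to 177) and Rplp0 at 149 CPM in library 2 (others 163 to 166).

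In the other 10 it was from a Low Activity female. They were Dlg2 at 295 CPM in library 9 (others 287 to 288), Draxin at 1.96 CPM in library 12 (others 2.25 to 2.31), Foxj1 at 14.7 CPM in library 9 (others 20.9 to 21.6) and Gm9625 at 0.451 CPM in library 11 (others 0.293 to 0.314). Then came Hist2h2be at 14.03 CPM in library 12 (others 10.4 to 10.8), Rps2 at 9.10 CPM in library 9 (others 3.03 to 3.49), Rps3a2 at 0.632 CPM in library 9 (others 0 in each) and Slc1a2 at 2914 CPM in library 9 (others 2773 to 2783). A library also stood apart for Tpm3-rs7 at 2.41 CPM in library 9 (others 0.844 to 1.100) and Trim12a at 0.0375 CPM in library 11 (others 0 in each).

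High minus Low, the length trend was 0.30 in females and -0.13 in males, a difference of 0.43 (exact permutation of strain labels within each sex, p = 0.0122, whose null is no strain effect in either sex, and of sex labels within each strain, p = 0.0110, whose null is no sex effect in either strain). The male libraries spread widely within each strain and overlapped between the strains.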

How the results depend on the processing

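The 3230 calls (1743 higher, 1487 lower) became 3255 with filterByExpr, 3247 with RLE factors, 3241 with upper-quartile factors, 3043 with DESeq2, 2734 with limma-voom, 3047 with the newer quasi-likelihood method, 2319 with all 16 libraries and 3337 with adjustment over protein-coding genes. The split was 1546 higher and 1678 lower without composition factors (3224 calls) and 1284 and 1347 with the length and GC offset (2631). Leaving out each library gave 2568 to 3405 calls. Depth limits genes under 1 CPM, which made up 302 calls.

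Nuclear subunits of oxidative phosphorylation called lower fell to 21 with the offset, against 44 without it. The 7 mature oligodendrocyte markers called higher became 4 with DESeq2, 3 with limma-voom and 4 with all 16 libraries. The 6 immediate early genes called lower became 3 with filterByExpr, 3 with DESeq2, 2 with limma-voom and 2 with all 16 libraries, and 3 to 10 with 1 library left out. The 12 sodium and calcium channel subunits called higher became 4 with all 16 libraries and 4 with the offset. The 9 histone methylation genes became 2 with the offset, the 23 axon guidance genes 12 with all 16 libraries, and the 5 CA2 and CA3 markers 2 with limma-voom, 3 with all 16 libraries and 3 to 6 with 1 library left out. The cause was not tested.

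The length trend of 0.31 was 0.182 to 0.344 under the other settings run, 0.261 to 0.341 with 1 library left out, and 0.0974 within genes under 40% GC (exact permutation p = 0.343). With 1 library left out the exact permutation p was 0.0286 each time. That is the smallest p possible there, and the lack of overlap between the strains fixed it in advance. The GC difference of 0.0788 was 0.0559 over all protein-coding genes with a count (exact permutation p = 0.0286). It was 0.176 within transcripts up to 1 kb (12 genes of low GC) and 0.106 within 1 to 2 kb (exact permutation p = 0.0286 for each). It was 0.0529 within 2 to 4 kb, 0.0165 within 4 to 8 kb and -0.0704 over 8 kb, and 0.0556 to 0.0963 with 1 library left out (without library 1, exact permutation p = 0.0286). Grin2a stood at -0.023 with the offset. Of 211 called genes among the 232 named, 142 were called under every alternative run, 69 missed the threshold in at least 1, and Grin2a alone changed sign. Of other list counts, 1444 stayed within 1.5 times and 216 did not. No paired analysis was possible because the High and the Low libraries share no replicate numbers.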
